A study of Homo sapiens with 3 samples.

Results

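The syndecans and glypicans are the cell surface families of heparan sulfate proteoglycans, and their 10 human genes, SDC1 to SDC4 and GPC1 to GPC6, were followed by gene symbol among the 46427 genes of the RNA-seq table. The families were chosen with the counts of SDC2 in view, which were 0 in parental MM468 and 5101 in paclitaxel-resistant MM468, so the contrast of these libraries for SDC2 is given as a description. MM468 stands for MDA-MB-468, an established cell line from triple-negative breast cancer (TNBC), a tumor type without hormone receptor or HER2 expression. Sequencing covered 3 lines, labelled wild type in genotype, with 1 library each. They were untreated parental MM468, adriamycin-resistant MM468 that survived exposure to 10 to 140 nM adriamycin, and paclitaxel-resistant MM468 that survived 2 to 320 nM paclitaxel. Adriamycin poisons topoisomerase II and paclitaxel stabilises microtubules. The resistant lines are described as surviving cells and not as single clones, and the passages that separate them from the parental cells are not given in the sources used here. With 1 library per line, no difference has a replicate check, no SD can be given and no test was run.

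Syndecans cross the plasma membrane once and carry heparan sulfate chains, and some also chondroitin sulfate chains, on an ectodomain that proteases can shed. Glypicans are globular proteins held in the outer leaflet by a glycosylphosphatidylinositol anchor, with heparan sulfate chains near the membrane. Through these sulfated chains both families bind growth factors, morphogens and matrix proteins and present them to receptors. SDC1 is the main syndecan of epithelia, SDC2 is best known from mesenchymal, endothelial and neural cells, SDC3 is prominent in the nervous system, and SDC4 is widespread and localises to focal adhesions.

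The gene counts summed to between 32704885 and 47567927 per library, and 3 counts, the upper limit that a count of 0 allows, corresponded to between 0.0631 and 0.0917 CPM, the count scaled by the library total. The intervals given here (95%, exact binomial) describe how far counting error alone can move the ratio between a pair of counts. Scaling to library size alone, without the TMM normalization of edgeR, moved the median log2 difference of all genes by 0.23 between paclitaxel-resistant and parental cells and by 0.25 between the resistant lines. In these comparisons the higher share of genes past 2-fold went from 60.2% to 71.2% and from 58.2% to 71.4%. Between adriamycin-resistant and parental cells it was 49.0%, and 39.5% on TPM. The epithelial label was checked against 8 markers, which included the adhesion protein EPCAM and the keratins KRT8 and KRT18, and none was at 0 in any library. Their summed TPM was 8239 in parental, 9063 in adriamycin-resistant and 8448 in paclitaxel-resistant cells. Among the receptors that TNBC lacks by definition, the estrogen receptor gene ESR1 had 152, 335 and 161 counts, the progesterone receptor gene PGR 0, 0 and 7, and the HER2 gene ERBB2 2204, 3597 and 2405 in the same order, so transcripts of ESR1 and ERBB2 were detected in every library.

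For the members that carried most of the reads, and for 1 that carried none, the sequence before the transcription start is shown, because expressed and unexpressed genes of the same families can be set side by side. RefSeq promoter entries on GRCh38.p14 were found for 8 of the 10 members. There was no entry for SDC2 and GPC3. The 250 bases before the annotated start are printed 5′ to 3′ on the strand of the gene, and capitals mark 3 motifs searched on both strands: GGGCGG, the core of GC boxes, GCGTG, the core of the xenobiotic response element bound by the aryl hydrocarbon receptor, and TATAA. Over the windows of the same length of 35116 promoters, 42.6% held GGGCGG, 32.2% held GCGTG and 18.9% held TATAA, and the median number of CG dinucleotides was 11. The windows are SDC1 (the first of its 2 entries) at chr2:20225476-20225725 on the minus strand, SDC4 at chr20:45348425-45348674 on the minus strand, GPC4 at chrX:133415490-133415739 on the minus strand and GPC5 at chr13:91398371-91398620 on the plus strand.
SDC1: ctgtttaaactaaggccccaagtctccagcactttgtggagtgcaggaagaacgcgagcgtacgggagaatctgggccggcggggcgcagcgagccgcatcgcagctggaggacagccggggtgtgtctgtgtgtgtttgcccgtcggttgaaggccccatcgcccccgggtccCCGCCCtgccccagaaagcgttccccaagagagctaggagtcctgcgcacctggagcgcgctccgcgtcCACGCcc
SDC4: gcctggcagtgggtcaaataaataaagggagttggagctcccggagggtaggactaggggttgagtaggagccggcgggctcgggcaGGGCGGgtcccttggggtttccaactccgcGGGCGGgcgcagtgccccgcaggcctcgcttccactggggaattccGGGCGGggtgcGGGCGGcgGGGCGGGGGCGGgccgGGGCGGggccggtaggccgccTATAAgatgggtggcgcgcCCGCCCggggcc
GPC4: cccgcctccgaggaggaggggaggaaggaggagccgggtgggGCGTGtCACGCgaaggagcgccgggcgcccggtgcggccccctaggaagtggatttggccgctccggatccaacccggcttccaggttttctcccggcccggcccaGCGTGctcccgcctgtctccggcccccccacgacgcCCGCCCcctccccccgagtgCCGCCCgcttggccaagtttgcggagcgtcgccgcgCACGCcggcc
GPC5: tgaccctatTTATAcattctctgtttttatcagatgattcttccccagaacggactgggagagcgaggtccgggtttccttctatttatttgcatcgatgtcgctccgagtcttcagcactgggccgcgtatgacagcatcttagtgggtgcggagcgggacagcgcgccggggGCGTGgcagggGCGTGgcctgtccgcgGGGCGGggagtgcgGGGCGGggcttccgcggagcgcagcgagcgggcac
All 4 windows were rich in CG, with 23 such dinucleotides in SDC1, 26 in SDC4, 32 in GPC4 and 25 in GPC5. The SDC4 window held GGGCGG 8 times and a TATAA that began 31 bases before the start. In the SDC1 window GGGCGG and GCGTG matched 1 time each. The GPC4 window held GCGTG 4 times and GGGCGG 2 times, and the window of GPC5, a gene with no counts in any library, held each of these 2 times. These matches describe letters and not bound sites. Of the other windows, GGGCGG occurred 5 times in SDC3, 4 times in GPC1 and 3 times in GPC2. The GPC6 window held none and had 6 CG dinucleotides. The entries of SDC3 and GPC6 start inside the annotated gene, so these windows lie within it.

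SDC2, a syndecan of chromosome 8 (GRCh38.p14, 96493813 to 96611790), had 0 counts in parental MM468, 19 in adriamycin-resistant MM468 and 5101 in paclitaxel-resistant MM468. Its level was 0.228 TPM in adriamycin-resistant cells and 83.0 TPM in paclitaxel-resistant cells. The 3 libraries thus stood well apart for this gene, and paclitaxel-resistant cells were the only line with SDC2 above 1 TPM. Against the 3 counts that a count of 0 allows, SDC2 was at least 1099-fold higher in paclitaxel-resistant than in parental cells and at least 4.30-fold higher in adriamycin-resistant cells. Taken from the 0 count itself, the 95% counting intervals of these ratios began lower, at 893 and 3.17. Between the resistant lines the difference was 249-fold, with an interval from 159 to 414. In bulk libraries, a larger share of cells that express SDC2 and more SDC2 RNA per cell cannot be told apart. The length implied by the deposited values, CPM divided by FPKM, was 4.06 kb for SDC2 in adriamycin-resistant and 3.63 kb in paclitaxel-resistant cells, a spread of 11.9%, whereas it varied by at most 2.56% between libraries for the other members with counts.

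A count of 0 in parental MM468 beside a high count in a resistant line was uncommon. Of all genes in the table, 15 had 0 counts in parental and 1000 or more in paclitaxel-resistant cells, of which 14 were protein-coding, and 2 of the 15, SDC2 among them, had at least the counts of SDC2. The number was 6 for adriamycin-resistant cells, and 1 gene showed the opposite pattern in each resistant line. None of 15 housekeeping genes was at 0 in any library.

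The protein-coding genes whose log2 CPM over the 3 libraries lay nearest to SDC2 were TCEAL9, TSPEAR, ITGA1, ZNF618 and NELL2, at Euclidean distances of 1.82, 2.21, 2.38, 2.39 and 2.58. TCEAL9 had 0, 46 and 2072 counts in parental, adriamycin-resistant and paclitaxel-resistant cells. ITGA1, which encodes the collagen-binding integrin alpha 1 chain, had 0, 24 and 996. NELL2, a secreted glycoprotein best known from neurons, had 0, 32 and 924. Like SDC2, these genes had their highest count in the paclitaxel-resistant library. The likeness rests on 3 libraries and was the basis of their choice, so it carries no test.

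**Figure D1:**
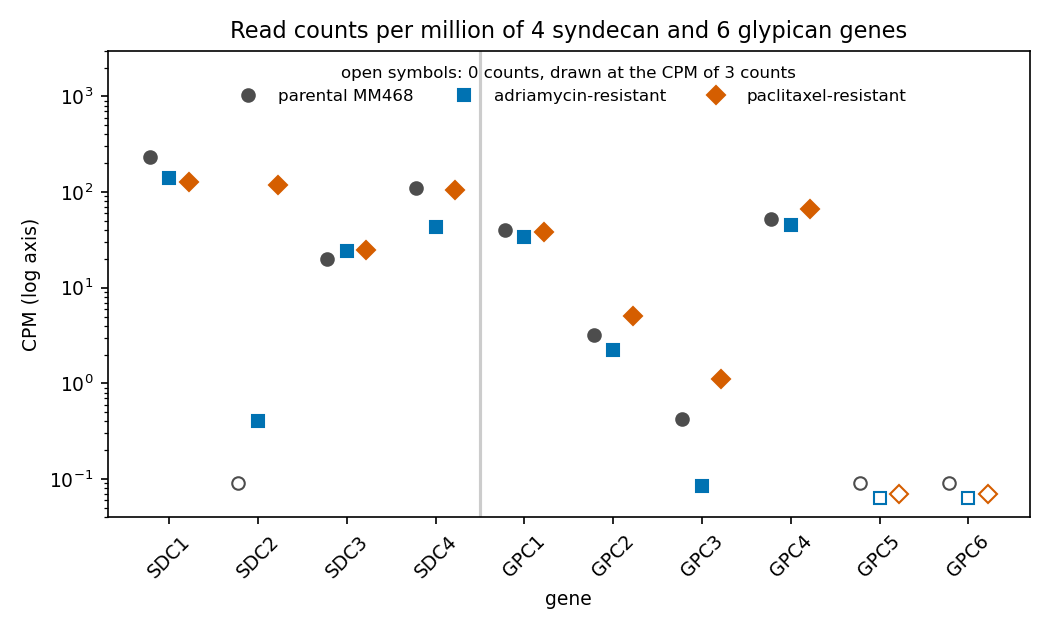
CPM (log axis) of the 4 syndecan and 6 glypican genes, 1 point per library, in parental (circles), adriamycin-resistant (squares) and paclitaxel-resistant (diamonds) MM468. Open symbols mark 0 counts and stand at the CPM of 3 counts. SDC2 spans the widest range, from 0 counts in parental to 118 CPM in paclitaxel-resistant cells, and GPC5 and GPC6 were at 0 in all 3 libraries.

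SDC1, the major epithelial syndecan (chromosome 2, 20200797 to 20225475), had the highest TPM of the members in parental MM468 and was lower in both resistant lines. Its counts were 7662 in parental, 6660 in adriamycin-resistant and 5450 in paclitaxel-resistant cells, or 163, 93.2 and 93.6 TPM. Parental cells were thus the high library. SDC1 was 1.69-fold lower in adriamycin-resistant than in parental cells (log2 difference -0.76, interval of the fold 1.64 to 1.75) and 2.18-fold lower in paclitaxel-resistant cells (-1.12, 2.10 to 2.25). The 2-fold line was passed in paclitaxel-resistant cells with TMM but not with library size alone (-0.89) or on TPM (-0.79). Between the resistant lines the log2 difference was -0.40 with TMM and 0.01 on TPM, so their order depended on the scaling.

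SDC4, the syndecan of focal adhesions (chromosome 20, 45325288 to 45348424), separated the resistant lines from each other. It had 3639 counts in parental, 2048 in adriamycin-resistant and 4546 in paclitaxel-resistant cells, or 94.3, 35.0 and 95.6 TPM. The adriamycin-resistant library was the low one. SDC4 was 2.62-fold lower there than in parental cells (-1.39, 2.48 to 2.76), and 2.06-fold higher in paclitaxel-resistant than in adriamycin-resistant cells (1.04, 1.95 to 2.17). Paclitaxel-resistant cells were close to parental cells, with a log2 difference of -0.31 that was -0.08 with library size alone and 0.02 on TPM.

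SDC3, the syndecan of the nervous system (chromosome 1, 30869466 to 30909735), was the low syndecan of parental MM468 among those detected there, and its levels were similar in all libraries. Its counts were 648 in parental, 1156 in adriamycin-resistant and 1069 in paclitaxel-resistant cells, or 8.33, 9.72 and 11.2 TPM. The parental library was the lowest. SDC3 was 1.21-fold higher in adriamycin-resistant than in parental cells (0.28, 1.10 to 1.34). In paclitaxel-resistant cells the ratio was 1.07, and its interval of 0.966 to 1.18 included 1. The order of the resistant lines turned with the scaling, at -0.22 with TMM and 0.02 with library size alone.

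The syndecan family differed between the lines in amount and in make-up. The summed level of its 4 genes was 265 TPM in parental, 138 TPM in adriamycin-resistant and 283 TPM in paclitaxel-resistant cells. On TPM, the median log2 difference of all genes between paclitaxel-resistant and parental cells was 0.20 above that with TMM. The sums were not taken with TMM, so the order of these lines by the full sum is not settled. Without SDC2 the sum in paclitaxel-resistant cells was 200 TPM, below that of parental cells. SDC1 made up 61.3% of the sum in parental and 67.5% in adriamycin-resistant cells but 33.0% in paclitaxel-resistant cells. There SDC1, SDC4 and SDC2 stood at similar levels, with 33.7% for SDC4 and 29.3% for SDC2. SDC4 was 35.6% of the sum in parental and 25.3% in adriamycin-resistant cells, and SDC2 was 0.165% in the latter. SDC3 took between 3.14% and 7.04%.

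Among the glypicans, GPC1 and GPC4 carried most of the family in every line. GPC4, first described in embryonic kidney (chromosome X, 133300103 to 133415489), had 1721 counts in parental, 2149 in adriamycin-resistant and 2881 in paclitaxel-resistant cells, or 23.5, 19.3 and 31.9 TPM. The paclitaxel-resistant library was the high one on the TPM scale, and the libraries spanned less than 2-fold. The log2 difference from parental cells was -0.24 in adriamycin-resistant cells (1.18-fold lower, 1.11 to 1.26) and 0.11 in paclitaxel-resistant cells (1.08-fold higher, 1.02 to 1.15).

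GPC1, a glypican described in several carcinomas (chromosome 2, 240435663 to 240468076), had 1305, 1623 and 1663 counts in the same order, or 23.8, 19.5 and 24.6 TPM. These levels were the most even of all members with counts. GPC1 was 1.18-fold lower in adriamycin-resistant (-0.24) and 1.21-fold lower in paclitaxel-resistant cells (-0.28), but on TPM the latter difference was 0.05. Together GPC1 and GPC4 left little room for other glypicans, with 47.2% and 46.6% of the summed glypican TPM in parental, 47.9% and 47.4% in adriamycin-resistant and 39.4% and 51.2% in paclitaxel-resistant cells. The sum itself was 50.4, 40.6 and 62.3 TPM in this order. It was not taken with TMM, so the order of parental and paclitaxel-resistant cells is not settled for this sum either.

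GPC2, a glypican of the developing nervous system (chromosome 7, 100169606 to 100177381), had 104 counts in parental, 106 in adriamycin-resistant and 219 in paclitaxel-resistant cells, or 2.76, 1.84 and 4.72 TPM. The paclitaxel-resistant library was highest and the adriamycin-resistant library lowest. GPC2 was 1.44-fold lower in adriamycin-resistant than in parental cells (1.09 to 1.91) and 1.36-fold higher in paclitaxel-resistant cells (1.07 to 1.74). Between the resistant lines it was 1.92-fold higher in paclitaxel-resistant cells, with an interval of 1.51 to 2.44.

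GPC3, an oncofetal glypican best known from liver cancer (chromosome X, 133535745 to 133985594), was near the limit of detection. It had 14 counts in parental, 4 in adriamycin-resistant and 48 in paclitaxel-resistant cells, or 0.405, 0.0761 and 1.11 TPM. The order of the lines was that of GPC2. GPC3 was 5.15-fold lower in adriamycin-resistant than in parental cells with an interval from 1.62 to 21.5, and 2.22-fold higher in paclitaxel-resistant cells with an interval from 1.20 to 4.35, so that neither interval lay wholly past 2-fold. Between the resistant lines the difference was 11.1-fold (4.08 to 42.5). GPC3 and GPC4 are adjacent protein-coding genes on chromosome X, yet GPC4 exceeded GPC3 in every library, by level per length in TPM.

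GPC5 and GPC6, adjacent protein-coding genes on chromosome 13 (91398621 to 92867237 and 93216529 to 94408020), had 0 counts in all 3 libraries, which allows up to 0.0917 CPM in parental cells. The antisense genes GPC3-AS1, GPC5-AS1, GPC5-AS2, GPC6-AS1 and GPC6-AS2 and the pseudogene SDC4P were likewise listed at 0 throughout.

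Counted together, 8 of the 10 members reached 10 counts in at least 1 library of each comparison and could be compared, and GPC5 and GPC6 could not. In adriamycin-resistant against parental cells, 1 member was at least 2-fold higher (SDC2) where 10.9% of 17950 genes were, and 2 were at least 2-fold lower (SDC4 and GPC3) where 11.4% of genes were. The median log2 difference of the 8 was -0.39, and that of all genes compared was 0.02. In paclitaxel-resistant against parental cells, the contrast used to choose the families, 2 members were at least 2-fold higher (SDC2 and GPC3) beside 20.5% of 19099 genes, and 1 was at least 2-fold lower (SDC1) beside 13.5%. The medians were 0.10 for the members and 0.07 for all genes. In paclitaxel-resistant against adriamycin-resistant cells, 3 members were at least 2-fold higher (SDC2, SDC4 and GPC3) where 19.4% of 19327 genes were, and 0 were at least 2-fold lower where 14.0% were, with medians of 0.63 and 0.04. The first and second comparisons share the parental library, and each resistant library enters a pair of them, so these counts are not independent of each other.

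**Figure D2:**
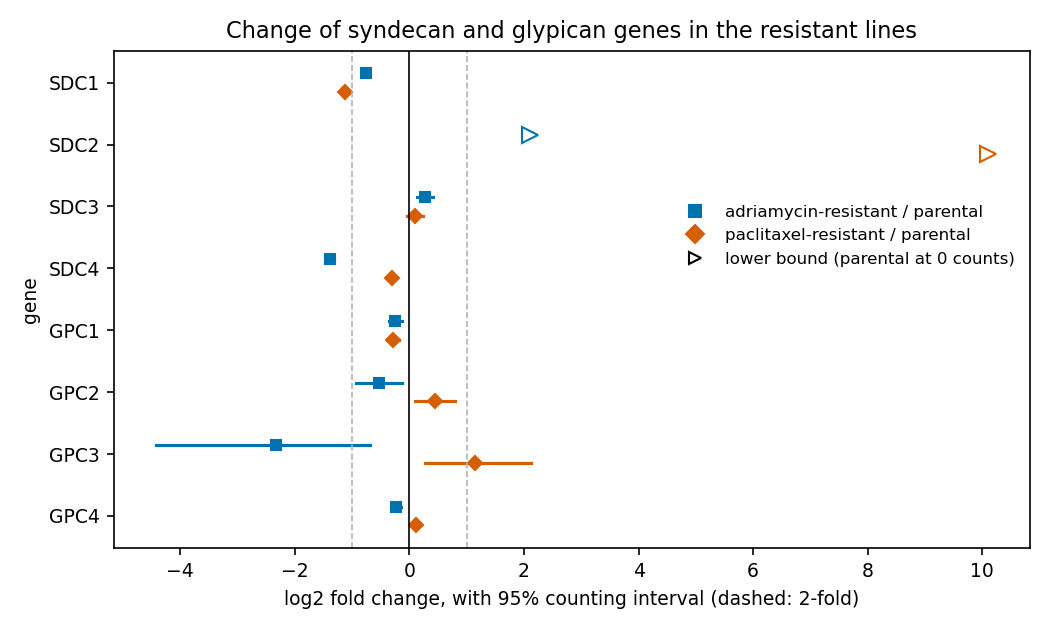
Log2 fold change (horizontal axis) of the 8 members with enough counts, in adriamycin-resistant (squares) and paclitaxel-resistant (diamonds) against parental MM468, with 95% counting intervals as lines and dashed lines at 2-fold. Open triangles are the lower bounds of SDC2, 4.30-fold and 1099-fold. SDC4 stands apart from parental in adriamycin-resistant cells, and the low counts of GPC3 give it the widest intervals.

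SDC2 was set beside its 10 nearest protein-coding neighbours, 5 on each side, of which 9 could be compared and GDF6 was at 0 in every library. In adriamycin-resistant cells, 8 of the 9 had a log2 difference from parental above 0, with a median of 0.93, and 3 were at least 2-fold higher, where 10.9% of all genes were. In paclitaxel-resistant cells it was 7 of the 9, with a median of 0.35, and 2 were at least 2-fold higher, where 20.5% of all genes were. None was 2-fold lower in either. The next gene downstream, CPQ, which encodes a secreted carboxypeptidase, had 5 counts in parental, 462 in adriamycin-resistant and 547 in paclitaxel-resistant cells. CPQ was thus near 0 in parental cells, as SDC2 was, but similar in both resistant lines, at 62.8-fold (26.7 to 194) and 70.7-fold (30.1 to 219) above parental.

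TSPYL5, the second gene downstream, had 749, 4124 and 3603 counts and was 3.74-fold and 3.11-fold above parental. On the upstream side, UQCRB, a subunit of respiratory complex III, had 2148, 7864 and 4191 counts and was 2.49-fold above parental in adriamycin-resistant cells and 1.26-fold in paclitaxel-resistant cells. The immediate upstream neighbour PTDSS1, a phosphatidylserine synthase, had 3541, 8442 and 6998 counts and was 1.62-fold and 1.28-fold above parental. Apart from CPQ and GDF6, the neighbours had counts of 157 or more in parental cells, so a count at or near 0 there was shared by SDC2, GDF6 and CPQ and by none of the others. MATN2, a matrilin of the extracellular matrix, had 624, 723 and 677 counts and had log2 differences of -0.35 and -0.51.

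**Figure D3:**
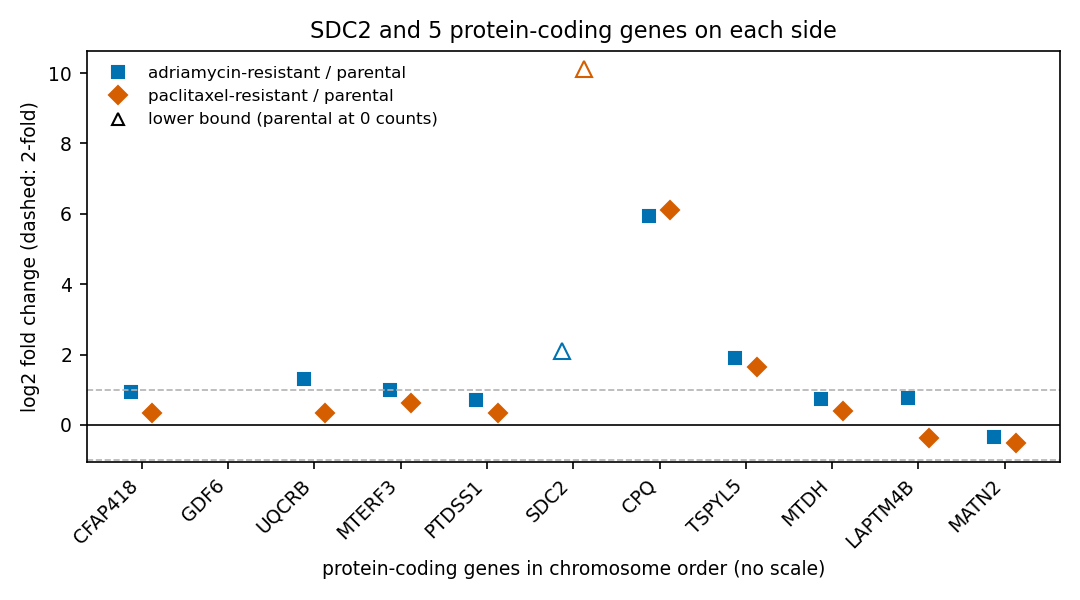
Log2 fold change against parental MM468 of SDC2 and its nearest protein-coding neighbours in chromosome order, for adriamycin-resistant (squares) and paclitaxel-resistant (diamonds) cells. Open triangles are lower bounds for SDC2. CPQ stands far above 0 in both resistant lines, and most other neighbours lie above 0 in adriamycin-resistant cells, with a median of 0.93 over the 9 compared.

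For the neighbours of the other members in adriamycin-resistant cells, the median log2 differences were -0.23 for SDC1, 0.03 for SDC3, -0.20 for SDC4, -0.01 for GPC1, -0.07 for GPC2, 0.22 for GPC5 and 0.10 for GPC6. Around GPC3 and GPC4, whose neighbours are largely the same genes, the medians were -0.63 and -0.80. In paclitaxel-resistant cells the medians were 0.47 for GPC5, 0.39 for GPC6 and 0.37 for GPC2, all above the 0.35 of the SDC2 neighbours, 0.16 for SDC3, 0.12 for SDC1, and -0.39, -0.56, -0.70 and -0.70 for GPC1, SDC4, GPC3 and GPC4. One of these neighbours is HS6ST2, a heparan sulfate 6-O-sulfotransferase on chromosome X, with 277, 108 and 268 counts. A matrilin gene lies within 5 protein-coding genes of each syndecan, namely MATN3 near SDC1, MATN2 near SDC2, MATN1 near SDC3 and MATN4 near SDC4. Only MATN2 had more than 44 counts in any library.

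The proteins of both families work through their heparan sulfate, so 43 genes that build, sulfate, remodel or shed the chains and their core proteins were followed. In adriamycin-resistant cells 28 could be compared, 1 was at least 2-fold higher and 6 were at least 2-fold lower, with a median log2 difference of -0.25. In paclitaxel-resistant cells 30 could be compared, 3 were higher and 6 were lower, with a median of -0.26. These shares, 3.57% and 21.4% in the first comparison and 10% and 20% in the second, stand beside the 10.9% and 11.4% and the 20.5% and 13.5% of all genes. Of the 3 chain genes higher in paclitaxel-resistant than in parental cells, HS6ST3 and HS3ST5 reached 10 counts only in the paclitaxel-resistant library. With genes counted in all 3 libraries, 1 was higher. Between the resistant lines, 5 of 30 were higher and 4 lower in paclitaxel-resistant cells.

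Of the genes of the linkage region and of chain polymerisation, 9 could be compared, and 0 passed 2-fold in either direction in paclitaxel-resistant cells. In adriamycin-resistant cells 2 of the 9 were lower (22.2%, beside 11.4% of all genes), named here after their values were seen. The xylose kinase gene FAM20B had 5258, 3154 and 4135 counts in parental, adriamycin-resistant and paclitaxel-resistant cells, and was 2.45-fold lower in adriamycin-resistant cells. EXTL2, which adds an N-acetylhexosamine to the linkage region, had 1110, 527 and 1062 counts and was 3.10-fold lower there. The polymerase genes EXT1 and EXT2 had 1969 and 5227 counts in parental, 4310 and 7469 in adriamycin-resistant and 5406 and 10741 in paclitaxel-resistant cells, with log2 differences between -0.04 and 0.83. The xylosyltransferase gene XYLT1 was listed at 0 in all 3 libraries, whereas XYLT2 had 619, 1531 and 989 counts.

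Among 20 sulfation and epimerisation genes, 11 could be compared in adriamycin-resistant cells, of which 1 was higher and 3 were lower, and 13 in paclitaxel-resistant cells, of which 2 were higher and 4 were lower. These are 9.09% and 27.3% beside 10.9% and 11.4% of all genes, and 15.4% and 30.8% beside 20.5% and 13.5%. The 6-O-sulfotransferase gene HS6ST1 had 5484 counts in parental, 3541 in adriamycin-resistant and 3778 in paclitaxel-resistant cells. It was lower in both resistant lines, 2.28-fold (2.18 to 2.38) and 2.25-fold (2.15 to 2.34), but its log2 difference in paclitaxel-resistant cells did not reach 2-fold with library size alone (-0.94) or on TPM (-0.83). Its paralog HS6ST3 had 4, 0 and 99 counts and was 16.0-fold higher in paclitaxel-resistant than in parental cells, with an interval from 6.05 to 59.9. The 3-O-sulfotransferase gene HS3ST5 had 0, 0 and 26 counts and was at least 5.60-fold higher in paclitaxel-resistant cells. By level these genes were far apart, with HS6ST1 at 49.1 TPM in paclitaxel-resistant cells and HS6ST3 and HS3ST5 at 0.684 and 0.304 TPM.

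The remaining sulfation genes past 2-fold are named after their values were seen. In paclitaxel-resistant cells they were the N-deacetylase and N-sulfotransferase gene NDST1, with 8656, 13582 and 5184 counts and 2.58-fold lower, the epimerase gene GLCE, 2.33-fold lower (just short of 2-fold with library size alone, and log2 -0.82 on TPM), and SLC35B2, the transporter of the sulfate donor into the Golgi, 3.23-fold lower. In adriamycin-resistant cells they were HS2ST1, 2.06-fold lower, HS6ST2, 3.78-fold lower, and the donor synthase gene PAPSS2, which had 381, 1778 and 1038 counts and was 3.17-fold higher. With TMM, HS6ST1 was the 1 sulfation gene past 2-fold in the same direction in both resistant lines, a call that ended in paclitaxel-resistant cells with library size alone and on TPM. Whether the other changes differed between the lines was not tested.

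Of 12 genes of chain remodelling and shedding, 8 could be compared, with 0 higher and 1 lower in adriamycin-resistant cells and 1 higher and 2 lower in paclitaxel-resistant cells. These are 0% and 12.5% beside 10.9% and 11.4% of all genes, and 12.5% and 25% beside 20.5% and 13.5%. MMP7, matrilysin, a protease able to shed syndecans, had 250 counts in parental, 51 in adriamycin-resistant and 0 in paclitaxel-resistant cells. It was 7.21-fold lower (5.32 to 9.95) and at least 129-fold lower. The shedding proteases ADAM10 and ADAM17 lay between -0.12 and 0.34 on the log2 scale in both comparisons. In paclitaxel-resistant cells, HPSE, the heparanase that cuts the chains, had 1644 counts against 500 in parental cells and was 2.12-fold higher, and the extracellular 6-O-sulfatase gene SULF2 had 854 against 1867 and was 3.38-fold lower, both named after their values were seen.

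**Figure D4:**
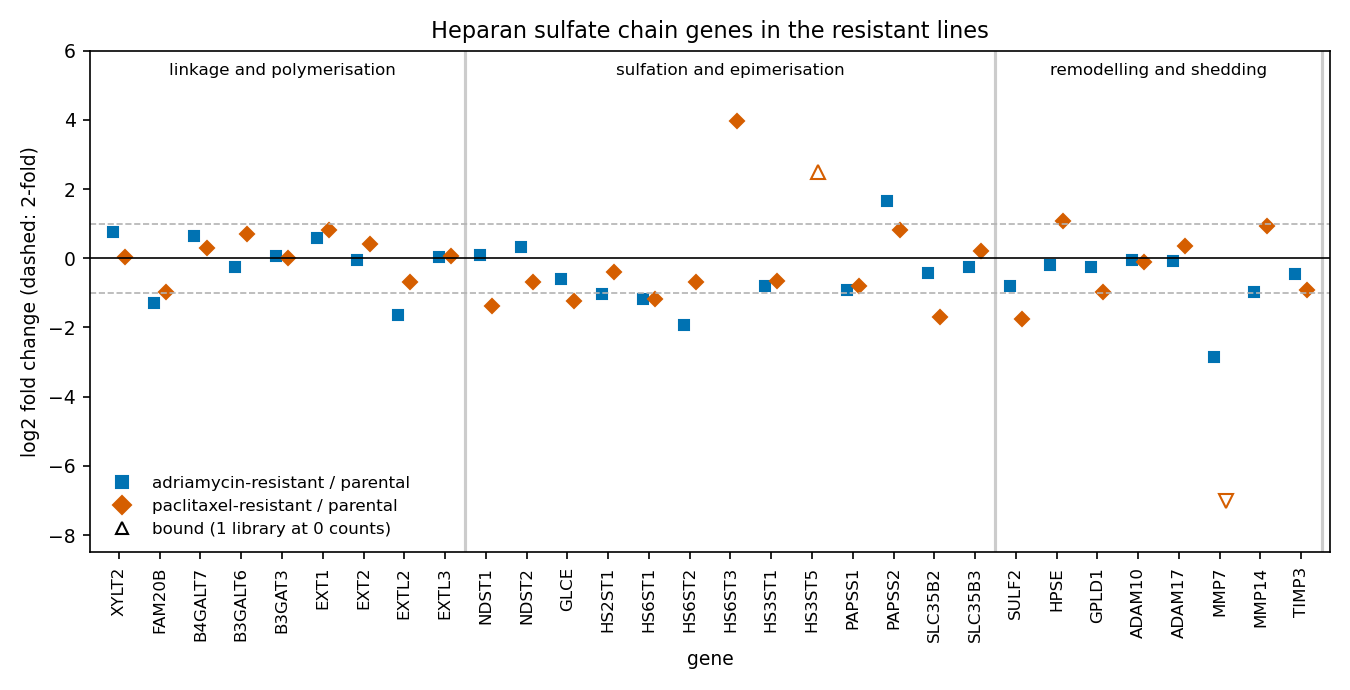
Log2 fold change against parental MM468 of 30 heparan sulfate chain genes, grouped by role, in adriamycin-resistant (squares) and paclitaxel-resistant (diamonds) cells, with dashed lines at 2-fold. Open triangles are bounds where a library had 0 counts. The linkage and polymerisation genes lie within 2-fold in paclitaxel-resistant cells, and MMP7 lies lowest in both lines.

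Of the other heparan sulfate proteoglycans, 8 could be compared, with 2 higher and 3 lower in adriamycin-resistant cells (25% and 37.5%, beside 10.9% and 11.4% of all genes) and 1 higher and 3 lower in paclitaxel-resistant cells (12.5% and 37.5%, beside 20.5% and 13.5%). Perlecan, HSPG2, of basement membranes, followed SDC4 in its order over the lines, with 4457 counts in parental, 1599 in adriamycin-resistant and 8754 in paclitaxel-resistant cells, and was 4.10-fold lower in adriamycin-resistant cells. The hyaluronan receptor CD44, which carries heparan sulfate in some splice forms, had 54520, 30752 and 15668 counts and was 2.61-fold and 5.38-fold lower. Serglycin, SRGN, an intracellular granule proteoglycan, had 0, 50 and 4 counts and was at least 11.3-fold higher in adriamycin-resistant cells, and testican SPOCK1 had 0, 3 and 18.

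Among chondroitin sulfate chain enzymes, 0 of 11 were higher and 1 was lower in adriamycin-resistant cells (0% and 9.09%, beside 10.9% and 11.4% of all genes), and 1 was higher and 2 were lower in paclitaxel-resistant cells (9.09% and 18.2%, beside 20.5% and 13.5%). The sulfotransferase gene CHST15 had 926, 557 and 320 counts and was 2.45-fold and 4.48-fold lower. Of the cytoplasmic partners of syndecans, 8 could be compared, with 0 higher and 1 lower in adriamycin-resistant cells (0% and 12.5%) and 1 higher and 2 lower in paclitaxel-resistant cells (12.5% and 25%), beside the same shares of all genes. SDCBP, syntenin-1, which binds the syndecan tail and sorts it into exosomes, had 1193, 2201 and 2756 counts and log2 differences of 0.33 and 0.58. Its paralog SDCBP2 had 126, 54 and 51 counts and was 3.43-fold and 3.82-fold lower. PRKCA, the protein kinase C isoform that binds SDC4, had 607, 887 and 2488 counts and was 2.65-fold higher in paclitaxel-resistant cells, and GIPC1 was 2.23-fold lower there, both named after their values were seen. The log2 difference of GIPC1 did not reach 2-fold with library size alone (-0.93) or on TPM (-0.82).

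Genes of proteins that bind the chains were also examined. Of the heparin-binding ligands, 0 of 11 were higher and 3 lower in adriamycin-resistant cells, and 1 of 12 was higher and 4 lower in paclitaxel-resistant cells. These are 0% and 27.3% beside 10.9% and 11.4% of all genes, and 8.33% and 33.3% beside 20.5% and 13.5%. Fibronectin, FN1, had 1744, 2016 and 276 counts and was 9.78-fold lower in paclitaxel-resistant cells (8.61 to 11.1). FGFBP1, a carrier of fibroblast growth factors, had 1831, 624 and 268 counts and was 4.32-fold and 10.6-fold lower. FGF1 had 42, 3 and 0 counts and was at least 21.7-fold lower in paclitaxel-resistant cells, and vitronectin, VTN, had 0, 0 and 11. VTN, the 1 ligand counted as higher, reached 10 counts only in the paclitaxel-resistant library. Of 8 heparan sulfate-binding receptors, 0 were higher and 2 lower in adriamycin-resistant cells and 1 was higher and 1 lower in paclitaxel-resistant cells, or 0% and 25%, and 12.5% and 12.5%, beside the same shares of all genes. The receptor phosphatase gene PTPRF, with 23843, 17075 and 16997 counts, was lower in both lines, 2.06-fold and 2.17-fold, and did not reach 2-fold in paclitaxel-resistant cells with library size alone (log2 -0.89) or on TPM (-0.78). The higher one, named after its values were seen, was MET, the receptor of hepatocyte growth factor, with 11201, 17075 and 48804 counts and 2.82-fold above parental.

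SDC2 is known from mesenchymal and endothelial cells, so markers of other cell types are given beside it. Of 8 fibroblast markers, 5 were at 0 in parental, 5 in adriamycin-resistant and 4 in paclitaxel-resistant cells, with summed levels of 9.54, 13.4 and 8.05 TPM that were mostly COL1A1. COL1A2, LUM and THY1 were at 0 in every library, DCN had 0, 0 and 14 counts, COL3A1 2, 0 and 21, and PDGFRA 152, 12 and 16. Of 5 endothelial markers, TEK had 0, 59 and 110 counts, KDR 209, 61 and 19, PECAM1 10, 39 and 2 and VWF 12, 4 and 16, and the list summed to 2.72, 1.42 and 1.88 TPM. Of 5 immune markers 2 were at 0 in each library, PTPRC had 24, 0 and 44 counts and CD68 206, 527 and 65, and the sums were 8.78, 13.9 and 2.95 TPM. By raw count, DCN, COL3A1, TEK, VWF and PTPRC were highest in the paclitaxel-resistant library, as SDC2 was. With TMM, the log2 differences from parental cells were 6.54 for DCN, 2.70 for COL3A1 and 9.50 for TEK. VWF and PTPRC were near parental, at -0.21 and 0.24. Other markers of these lists were lower there, PDGFRA at -3.87, KDR at -4.08, PECAM1 at -2.86, CD68 at -2.29 and COL1A1 at -0.31. On TPM with a pseudocount of 1, DCN, COL3A1 and PECAM1 did not reach 2-fold, at 0.15, 0.23 and -0.10. These lists thus showed no common direction. The part of other cell types in the SDC2 values was not tested. Among the epithelial markers KRT14, a basal keratin, had 2347, 515 and 474 counts and was the 1 marker past 2-fold, lower in both resistant lines by 6.71-fold and 7.66-fold.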

How the data were processed

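RNA-seq of parental, adriamycin-resistant and paclitaxel-resistant MM468 cells, with 1 library each from a stranded mRNA kit, was made and analysed for the authors by a sequencing company. Per the submitters' processing notes, Trimmomatic 0.39, HISAT2 2.2.1 and StringTie 2.2.1 were used with build GRCh38. Whether counting used the strand is not given in the sources used here, so that reads of overlapping genes on opposite strands may not be told apart. The authors deposited whole-number read counts, FPKM and TPM for 46427 genes in 1 table, with the counts not normalized.

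Counts were compared with edgeR 4.0.16 in R 4.3.3 between the 2 libraries of each comparison. Genes with 10 or more counts in 1 of them were kept, normalized by TMM and compared as log2 differences of CPM with a prior count of 0.125. No test can be fitted to single libraries, so genes past 2-fold were counted. Folds against 0 counts are bounds against 3 counts. Intervals (95%) are exact binomial. Levels of different genes were compared in TPM, and the fold steps were tested on simulated data. Neighbours and promoters are from RefSeq on GRCh38.p14, with 44698 genes matched by NCBI Gene ID.

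The members and gene lists were chosen with earlier results of these data known. Genes named beside the members changed at least 2-fold in both resistant lines or 4-fold in 1, at most 4 per list, or are neighbours of a member, the 5 genes most like SDC2, or reference genes of the pathway given for context, and others are said to be named after their values were seen. Alternatives were DESeq2 1.42.0 size factors, TMM on all 3 libraries, scaling to library size alone, 100 counts or none as the count minimum, 2 as the prior count, genes counted in all 3 libraries, TPM or FPKM with a pseudocount of 1 or 0.1 and a 4-fold threshold.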

Additional observations from a re-analysis of the deposited data

Results flagged for a closer look

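Of the genes given with values or plotted among the neighbours of SDC2, 14 lay on opposite sides of parental MM468 in the resistant lines with both counting intervals away from 0. Each line has 1 library, and the difference between the lines was not tested. GPC2 had a log2 difference of -0.53 in adriamycin-resistant and 0.44 in paclitaxel-resistant cells. GPC3 had -2.32 and 1.14, on 14, 4 and 48 counts in parental, adriamycin-resistant and paclitaxel-resistant cells. GPC4 had -0.24 and 0.11. Perlecan, HSPG2, had -2.04 and 0.34. Among the markers of other cell types, PECAM1 had 1.40 and -2.86, on 10, 39 and 2 counts, and CD68 had 0.80 and -2.29. Among the chain genes and partners, NDST1 had 0.092 and -1.37, ADAM17 -0.091 and 0.34, HPSE -0.21 and 1.09, and GIPC1 0.084 and -1.15. ESR1 had 0.58 and -0.55, ERBB2 0.15 and -0.50, COL1A1 0.75 and -0.31, and LAPTM4B, near SDC2, 0.77 and -0.38. These pairs share the parental library.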

How the results depend on the processing

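No paired analysis was possible because each line has 1 library, and for the same reason no library could be left out. Of 233 alternative values of the members' log2 differences, 178 lay within the counting interval and none with a 2-fold call changed sign. Sign changes, 12 in all, occurred for SDC1, SDC3, SDC4 and GPC1 below 2-fold. Low counts limit GPC3, and the pseudocount compresses low genes on TPM and FPKM. The log2 difference of SDC2 in adriamycin-resistant cells was 0.30 on TPM, and that of GPC3 was -0.39. For SDC1 in paclitaxel-resistant cells it was between -0.79 and -0.89 with library size alone, on TPM and on FPKM.

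In adriamycin-resistant against parental cells, the 1 member higher became 0 with a minimum of 100 counts, with genes counted in all 3 libraries (where SDC2 drops out by construction), on TPM and on FPKM with either pseudocount. The 2 lower became 1 with the minimum of 100 counts, on TPM or FPKM with a pseudocount of 1 and at 4-fold. Of the chain genes, with no count minimum 2 were higher and 11 lower, and at 4-fold 0 and 1, and of the SDC2 neighbours 1 was 4-fold higher.

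In paclitaxel-resistant against parental cells, the 2 members higher became 1 with a minimum of 100 counts, with genes counted in all 3 libraries, on TPM or FPKM with a pseudocount of 1 and at 4-fold. The 1 lower became 0 with library size alone, on TPM, on FPKM with either pseudocount and at 4-fold. The 3 chain genes higher became 6 with library size alone and on FPKM with a pseudocount of 0.1, 5 on TPM, and 1 with the minimum of 100 counts or with genes counted in all 3 libraries, and the 6 lower became 4 with library size alone, on TPM and on FPKM, and 1 at 4-fold. With library size alone and on TPM, the calls of HS6ST1, GLCE, GIPC1 and PTPRF ended. Of the SDC2 neighbours 1 was 4-fold higher.

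Between the resistant lines, the 5 chain genes higher became 8 with no count minimum, 3 with genes counted in all 3 libraries or on FPKM with a pseudocount of 1, and 2 at 4-fold. The 4 lower became 2 with the minimum of 100 counts or on TPM, and 1 on FPKM with a pseudocount of 1 or at 4-fold. The 2 SDC2 neighbours lower became 1 with TMM on all 3 libraries or the minimum of 100 counts, and 0 with library size alone, on TPM, on FPKM and at 4-fold. The share of SDC2 in the syndecans of paclitaxel-resistant cells, 29.3% by TPM, was 31.6% by read counts. The alternatives for neighbours, for this share, for the other gene lists and for the other named genes were chosen after seeing the data. Of 1812 alternative values of the other named genes, 1294 lay within the counting interval and 46 had the opposite sign. Of 1056 counts of the other lists, 821 lay within 1.5 times. Unless a construction is named, the cause was not tested.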

Other observations

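TCEAL9, the gene most like SDC2 over the 3 libraries, reached 113 TPM in paclitaxel-resistant cells, above the 83.0 TPM of SDC2 there, and had 0 counts in parental cells. TSPEAR, second in likeness, had 9, 20 and 1751 counts, and ZNF618, the fourth, had 0, 10 and 1109. Near GPC3 and GPC4 on chromosome X, the placental gene PLAC1 had 24 counts in parental, 447 in adriamycin-resistant and 42 in paclitaxel-resistant cells, and CCDC160 had 99, 8 and 27. Near GPC5 and GPC6 on chromosome 13, DCT, an enzyme of melanin synthesis, had 0, 13 and 24 counts. PLAC1, CCDC160 and DCT were named after their values were seen.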
